A study of Mus musculus with 12 samples.

Results

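The 8 genes described here make or control the proteins that bind and move zinc in a cell. They are the metallothioneins Mt1 and Mt2, the zinc-sensing transcription factor gene Mtf1, the zinc exporter genes Slc30a1, Slc30a5 and Slc30a7, and the zinc importer genes Slc39a1 and Slc39a10. They were taken by symbol, and all 8 were found among the 24421 symbols of the count table. Mt2 was picked for its strong rise with iBET in these same libraries, so its values under iBET are given as a description with no test. All 8 genes passed the filter on low counts, which kept 11468 genes.

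The cells were macrophages grown from the bone marrow of wild-type C57BL/6 mice (BMDMs), and their total RNA was sequenced. All groups shared 5 days of growth with 100 ng/mL of M-CSF and a change of medium on day 3. The DMSO Ova group received the solvent DMSO and ovalbumin alone, and the DMSO IC group received DMSO and immune complexes of ovalbumin with rabbit IgG (IC). The iBET Ova and iBET IC groups received I-BET151 (iBET), which blocks the bromodomains of the BET family of chromatin readers, at 5.0 µM with ovalbumin or with IC. The labels give 5% DMSO for the DMSO groups and no solvent concentration for the iBET groups. Stimulation lasted 4 hours. The labels place drug and stimulus together whereas the study's methods place the drug before the stimulus, so the order is uncertain. Each of the 4 groups held 3 libraries, lettered A, B and C, 12 libraries in all. Each letter is read here as 1 mouse that gave 1 library to every group.

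Zinc is an essential cofactor that is toxic in excess, and cells keep the free ion scarce. Metallothioneins are small proteins rich in cysteine that bind zinc and copper. The factor encoded by Mtf1 binds zinc, enters the nucleus and acts through metal response elements (MREs) in the promoters of the metallothioneins and of Slc30a1. Transporters of the SLC30 family (ZnT) move zinc out of the cytosol, and those of the SLC39 family (ZIP) move it in. Macrophages use this system to withhold zinc from, or to load it onto, ingested microbes, and metallothioneins are also known to respond to glucocorticoids and to oxidants.

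In both metallothionein promoters, the MRE core recurred. The windows run from 250 bases before the RefSeq start site to 30 bases after it, on GRCm38.p6, with matches to TGCACNC or TGCGCNC on either strand in capitals. Mt2 (chr8:94172368-94172647, plus strand), Mt1 (chr8:94178839-94179118, plus strand) and Slc30a1 (chr1:191906531-191906810, plus strand) are shown, since they are the targets that the zinc-sensing factor is best known for.
Mt2 promoter: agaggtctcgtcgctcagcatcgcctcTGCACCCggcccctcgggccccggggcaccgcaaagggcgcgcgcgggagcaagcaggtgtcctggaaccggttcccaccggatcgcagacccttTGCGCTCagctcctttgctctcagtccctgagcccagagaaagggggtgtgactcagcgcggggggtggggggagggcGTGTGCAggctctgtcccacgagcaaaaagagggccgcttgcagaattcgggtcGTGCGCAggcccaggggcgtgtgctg
Mt1 promoter: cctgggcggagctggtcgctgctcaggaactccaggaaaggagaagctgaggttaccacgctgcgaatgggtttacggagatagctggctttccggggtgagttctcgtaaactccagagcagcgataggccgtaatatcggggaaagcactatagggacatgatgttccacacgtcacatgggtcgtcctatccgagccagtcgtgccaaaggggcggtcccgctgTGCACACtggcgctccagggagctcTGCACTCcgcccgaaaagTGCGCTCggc
Slc30a1 promoter: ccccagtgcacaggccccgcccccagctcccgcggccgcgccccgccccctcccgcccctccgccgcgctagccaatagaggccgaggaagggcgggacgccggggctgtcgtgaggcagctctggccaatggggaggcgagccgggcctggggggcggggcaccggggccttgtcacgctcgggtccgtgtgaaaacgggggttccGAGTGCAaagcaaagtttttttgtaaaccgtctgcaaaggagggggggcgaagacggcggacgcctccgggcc
The Mt2 window held 4 MRE core matches, the Mt1 window 3 and the Slc30a1 window 1. Of 32851 RefSeq windows of the same length, 24.1% held at least 1 match, 1.73% at least 3 and 0.405% at least 4. The first base of each match lay at -223, -128, -50 and 5 in Mt2, at -23, 3 and 21 in Mt1 and at -43 in Slc30a1, counted from 1 at the start site with no position 0. The Slc30a5 window also held 1 match, at -48, and no match to these letters was found in the windows of Mtf1, Slc30a7, Slc39a1 or Slc39a10. Slc39a10 had 2 RefSeq start sites, and both windows were searched. The window at chr1:46925747-46926026 lies beyond the GENCODE span of the gene (chr1:46807544-46892852), and the one at chr1:46853589-46853868 lies inside it. The core of the antioxidant response element, TGACNNNGC, was found once each in the windows of Mt2, Slc30a1, Slc30a5 and Slc39a1 and in 11.5% of all windows, and overlapped no MRE match in them. These letter matches were not tested as binding sites.

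**Figure D1:**
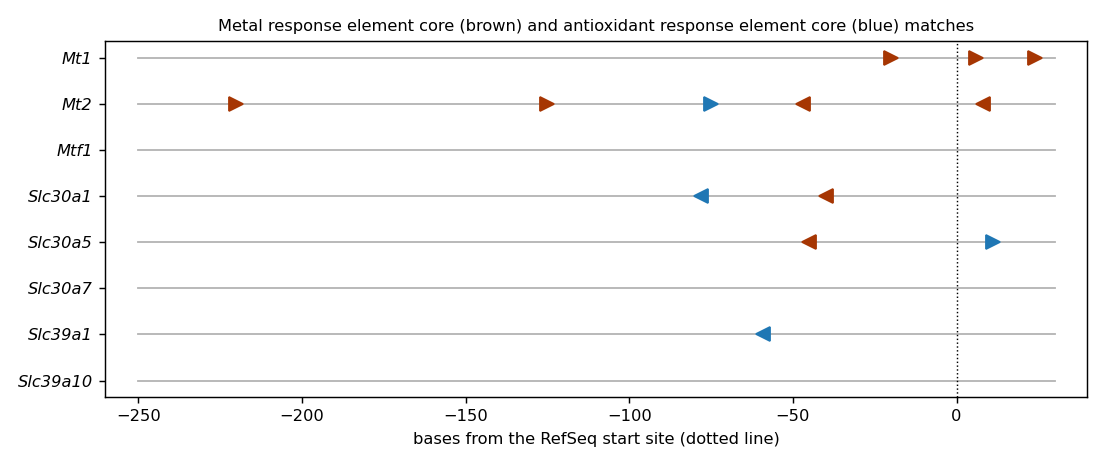
Position of each MRE core match (brown) and each antioxidant response element core match (blue) in the window around the RefSeq start site of the 8 genes, with the x axis in bases from the start site (dotted line) and each arrowhead pointing along the strand of the match. Mt2 carries 4 brown marks and Mt1 carries 3, while Mtf1, Slc30a7 and Slc39a10 carry no mark of either kind.

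Mt1 and Mt2 lie side by side on chromosome 8 of GRCm38. GENCODE places Mt2 at chr8:94172664-94173568 and Mt1 at chr8:94179082-94180327, both on the plus strand and 5513 bases apart. The Mt2 promoter window above is set on the RefSeq start and ends at 94172647, so all of it lies before the GENCODE start of Mt2. Their coding sequences are shown because reads of near-identical copies can be assigned to the wrong gene, and capitals mark the bases that differ between the pair.
Mt1 coding: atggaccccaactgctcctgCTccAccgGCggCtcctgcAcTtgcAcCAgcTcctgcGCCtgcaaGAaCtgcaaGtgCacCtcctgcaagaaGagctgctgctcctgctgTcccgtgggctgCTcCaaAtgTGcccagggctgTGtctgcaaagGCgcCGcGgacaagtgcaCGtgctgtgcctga
Mt2 coding: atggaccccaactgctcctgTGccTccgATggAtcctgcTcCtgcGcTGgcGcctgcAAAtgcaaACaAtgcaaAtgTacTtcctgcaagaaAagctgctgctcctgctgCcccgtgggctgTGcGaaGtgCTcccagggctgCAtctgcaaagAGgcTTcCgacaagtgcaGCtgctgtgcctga
Each runs over 186 bases and 61 codons, of which 20 encode cysteine. They differ at 38 positions (79.6% identity), and the longest stretch shared without a difference is 20 bases. Per the study's methods the reads were paired and longer than that stretch, but how multiply aligned reads were counted is not given in the sources used here, so a share of reads moved between the pair cannot be told apart from their levels. An antisense gene, Gm45774, overlaps an exon of Mt2 and has no row in the count table.

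Library totals ran from 7549849 to 17387639 counts. The ribosomal RNA precursor Rn45s held 1.41% to 7.83% of the counts in 11 libraries and 77.4% in the one of mouse A in DMSO Ova, which had 1768133 counts outside it against at least 7247830 in each of the others. Where leaving out this library changed a call, the value without it is given. The macrophage markers (8 of 8 detected) summed to 6341 to 7701 CPM (counts scaled to library size) in the DMSO libraries and to 7121 to 8440 in the iBET libraries. The sum hides Spi1, which was called lower with iBET, at -1.54 log2 units in Ova and -1.75 in IC. Its means were 192 and 241 CPM in DMSO and 66.0 and 71.7 CPM in iBET. Of the 8 markers, 1 was called higher in Ova and 2 in IC, where 17.1% and 19% of all genes tested were. Without mouse A's DMSO Ova library no macrophage marker was called higher in Ova. The nearest to a call was then Mertk, at 0.73 log2 units (edgeR adjusted p = 0.0727). Neutrophil markers summed to 9.76 to 56.3 CPM and dendritic cell markers to 0.23 to 1.45 CPM, with 0.23 to 1.09 in DMSO and 0.451 to 1.45 in iBET. Of the 5 dendritic cell markers only Zbtb46 passed the filter, on 0 to 17 counts a library. It was called higher with iBET in Ova, at 3.38 log2 units, and was not called in IC, at 1.32. Lymphocyte, stromal and erythroid markers each stayed at or below 2.57 CPM, and all 4 mast cell and basophil markers were at 0. The part of these cells in the results was not tested. In bulk RNA, fewer cells of a type and less RNA per cell cannot be told apart.

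Both metallothioneins were low in DMSO and high in iBET, whatever the stimulus. CPM here are counts scaled by TMM-normalized library size, so they compare 1 gene between libraries. Mt2 stood at 10.8, 12.0 and 14.0 CPM in DMSO Ova (mice A, B and C) and at 166, 137.6 and 93.3 CPM in iBET Ova. With IC it stood at 12.2, 9.35 and 11.6 CPM in DMSO and at 168.9, 103 and 162.3 CPM in iBET. Every iBET library was above every DMSO library, and the lowest iBET library was that of mouse C in Ova and of mouse B in IC. The counts behind these values were 21 to 169 in DMSO and 827 to 3164 in iBET, with 21 in mouse A's DMSO Ova library. The fitted Mt2 change was 3.40 log2 units (SE 0.25, 10.5-fold) in Ova and 3.70 (SE 0.25) in IC. Of the 11468 genes tested, 12 had a larger fitted rise in Ova and 10 in IC.

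Mt1 followed the same order of groups. It stood at 25.2, 32.1 and 31.7 CPM in DMSO Ova and at 207.7, 201.2 and 171.5 CPM in iBET Ova. With IC it stood at 25.8, 24.9 and 27.8 CPM in DMSO and at 208.2, 135.2 and 180.7 CPM in iBET. No DMSO library reached an iBET library. Mt1 rose by 2.68 log2 units (SE 0.16, 6.40-fold, adjusted p = 4.4e-07) with iBET in Ova and by 2.74 (SE 0.16, 6.67-fold, adjusted p = 3.03e-07) in IC, from edgeR's quasi-likelihood test with adjustment over all genes tested. The change was present in 3 of 3 mice in each, from 2.43 to 3.04 log2 units in Ova and from 2.43 to 3.00 in IC. Without mouse A's DMSO Ova library the Ova rise was 2.55 (adjusted p = 1.64e-06). Mt1 was not picked for this contrast, but it was listed beside Mt2 with earlier results of these libraries known.

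**Figure D2:**
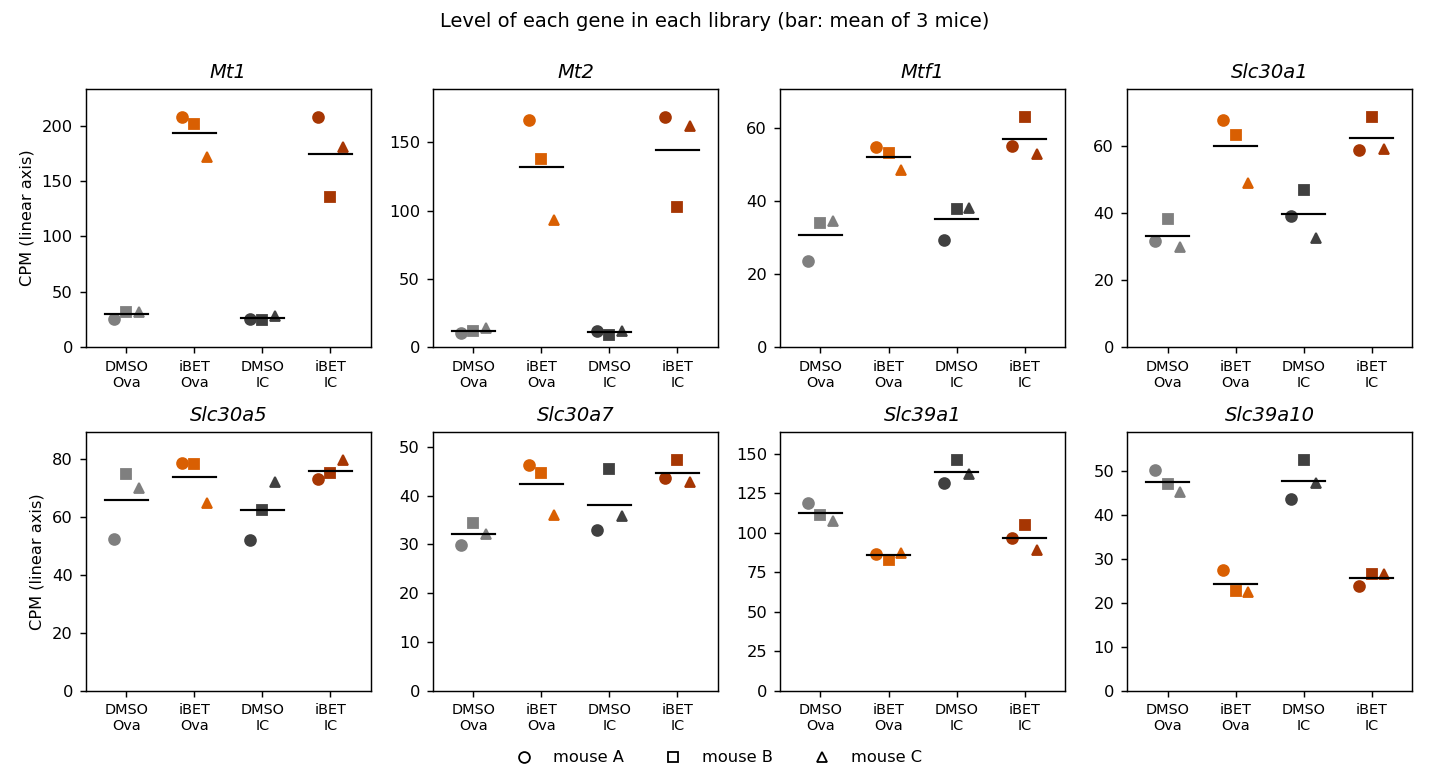
CPM (y axis, linear from 0, a scale of its own in each panel) of each of the 8 genes in each library by group (x axis), with the symbol giving the mouse and the bar the mean of 3 mice. Mt1 and Mt2 lie at 9.35 to 32.1 CPM in the 6 DMSO libraries and at 93.3 to 208.2 CPM in the 6 iBET libraries, and Slc39a1 and Slc39a10 lie lower in iBET than in DMSO.

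The balance between the pair also differed. Mt2 counts per Mt1 count within a library ran from 0.372 to 0.442 in DMSO Ova and from 0.376 to 0.472 in DMSO IC, against 0.544 to 0.799 in iBET Ova and 0.762 to 0.898 in iBET IC. The means were 0.414 ± 0.037, 0.422 ± 0.048, 0.676 ± 0.128 and 0.824 ± 0.069 (SD, n = 3) in that order. The lowest iBET library (mouse C in Ova, 95% interval 0.499 to 0.593) was above the highest DMSO library (mouse A in IC, 0.385 to 0.577), although these 2 exact binomial intervals, which cover counting error only, overlapped. The ratio of mouse A's DMSO Ova library rested on 21 and 49 counts and had an interval of 0.244 to 0.728. Since Mt2 was chosen by its rise, the shift in the ratio is a description. Summed over both genes, the level was 34.2 to 45.7 CPM in DMSO and 238 to 377 CPM in iBET.

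**Figure D3:**
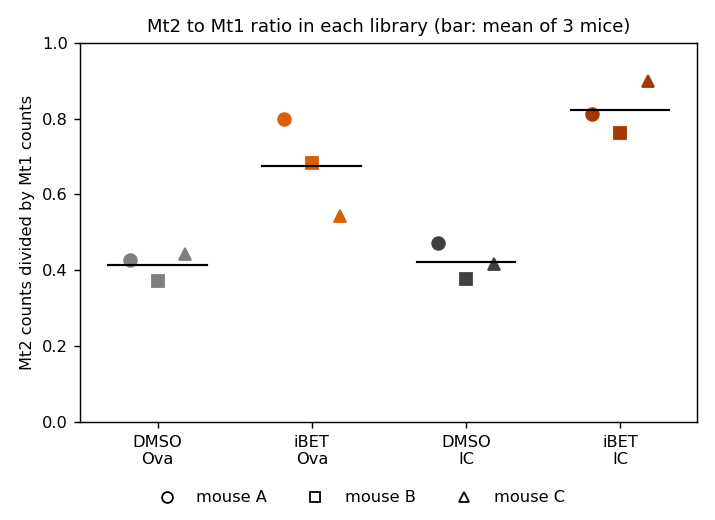
Mt2 counts divided by Mt1 counts (y axis, from 0) in each library by group (x axis), with the symbol giving the mouse and the bar the mean of 3 mice. The 6 DMSO libraries lie between 0.372 and 0.472 and the 6 iBET libraries between 0.544 and 0.898.

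Which of the pair was higher per length depended on the length used. Over Mt1-201 (549 bases) and Mt2-201 (511 bases), Mt1 averaged 54.0 ± 7.09 and Mt2 24.0 ± 3.19 CPM per kilobase in DMSO Ova (SD, n = 3). In iBET Ova they averaged 352 ± 35.1 and 259 ± 71.7, and in iBET IC 318 ± 67.1 and 283 ± 71.0, where the difference in means was smaller than the SD of either gene. Over all annotated exon bases (1246 for Mt1 and 588 for Mt2), Mt1 averaged 23.8 and Mt2 20.8 CPM per kilobase in DMSO Ova, but Mt2 was the higher in iBET, at 225 against 155 in Ova and 246 against 140 in IC. The other 2 members of the mouse family, Mt3 and Mt4, had 0 counts in all 12 libraries, which allows up to 3 counts in each, or 0.16 to 1.54 CPM by library.

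Among the 7 genes other than Mt2, 6 passed the test with iBET in Ova, 4 higher and 2 lower, and 5 passed it in IC, 3 higher and 2 lower. Of all 11468 genes tested, 31.3% were called in Ova (17.1% higher and 14.2% lower) and 34.8% in IC (19% higher and 15.8% lower). The genes were listed with earlier results known, so nothing is read from the members' count against that background. Leaving out mouse A's DMSO Ova library gave 5 calls in Ova and 5 in IC.

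Mtf1 (chr4:124802104-124849800, plus strand), which encodes the zinc sensor, stood at 23.6, 34.0 and 34.7 CPM in DMSO Ova and at 55.0, 53.3 and 48.6 CPM in iBET Ova. With IC it stood at 29.5, 38.0 and 38.2 CPM in DMSO and at 55.1, 63.3 and 53.0 CPM in iBET. The DMSO and iBET ranges did not overlap, and mouse A was the lowest of both DMSO groups. Mtf1 rose by 0.73 log2 units (SE 0.15, adjusted p = 0.0028) in Ova and by 0.70 (SE 0.15, adjusted p = 0.00269) in IC, in 3 of 3 mice each. Without mouse B the rises were 0.79 (adjusted p = 0.0562) and 0.68 (adjusted p = 0.0696), which ended both calls. Leaving out mouse A's DMSO Ova library gave 0.56 in Ova (adjusted p = 0.00982). Over all alternatives the adjusted p ran from 0.000593 to 0.0562 in Ova and from 0.000328 to 0.0696 in IC. The Mtf1 exons overlap those of 1110065P20Rik on the opposite strand, which was at 0.514 to 2.04 CPM, and the use of strand in counting is not given in the sources used here.

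Slc30a1 (chr1:191906767-191913247, plus strand) encodes ZnT1, the exporter of the plasma membrane. It stood at 31.8, 38.2 and 30.1 CPM in DMSO Ova and at 67.8, 63.5 and 49.0 CPM in iBET Ova. With IC it stood at 39.3, 47.1 and 32.7 CPM in DMSO and at 59.0, 68.9 and 59.3 CPM in iBET. All iBET libraries were above all DMSO libraries of the same stimulus. Slc30a1 rose by 0.84 log2 units (SE 0.16, adjusted p = 0.00195) in Ova and by 0.65 (SE 0.16, adjusted p = 0.00684) in IC, in 3 of 3 mice each. An antisense gene over its exons, 1700034H15Rik, had 0 to 7 counts a library.

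Slc30a5 (chr13:100802648-100833427, minus strand) and Slc30a7 (chr3:115938973-116007406, minus strand) encode ZnT5 and ZnT7, which load zinc into the early secretory pathway. Slc30a5 ranged from 51.9 to 74.6 CPM over the 6 DMSO libraries and from 64.8 to 79.6 CPM over the 6 iBET libraries. The groups overlapped in Ova. In IC the lowest iBET library (72.9 CPM) lay just above the highest DMSO library (72.1 CPM), and 3 of 3 mice were higher with iBET. Its fitted difference was 0.15 (SE 0.15, adjusted p = 0.476) in Ova and 0.29 (SE 0.14, adjusted p = 0.144) in IC, so neither passed the test. The Ova value depended on mouse A, at -0.02 without its DMSO Ova library.

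Slc30a7 stood at 29.8, 34.3 and 32.1 CPM in DMSO Ova and at 46.3, 44.7 and 36.1 CPM in iBET Ova, with no overlap. In IC it stood at 32.9, 45.6 and 35.8 CPM in DMSO and at 43.6, 47.4 and 42.9 CPM in iBET, where the DMSO library of mouse B lay within the iBET range. Slc30a7 rose by 0.39 log2 units (SE 0.14, adjusted p = 0.0496) in Ova, and the difference in IC was 0.23 (SE 0.14, adjusted p = 0.212). The Ova call lay just inside the threshold and was lost under 7 other alternatives and in 13 of the 15 fits that left out a library or a mouse. It held without mouse C's iBET Ova library, without mouse B's DMSO IC library and with a replicate block, with an adjusted p of 0.0228 to 0.205 over all alternatives. Without mouse A's DMSO Ova library it was 0.30 (adjusted p = 0.176). Leaving out the DMSO IC library of mouse B moved the IC value to 0.38 (adjusted p = 0.0483).

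Both importers fell with iBET, in Ova and in IC. Slc39a10 (chr1:46807544-46892852, minus strand), which encodes the plasma membrane importer ZIP10, stood at 50.3, 47.1 and 45.2 CPM in DMSO Ova and at 27.5, 22.7 and 22.6 CPM in iBET Ova. With IC it stood at 43.6, 52.6 and 47.2 CPM in DMSO and at 23.9, 26.6 and 26.6 CPM in iBET. Each iBET library was below each DMSO library. Slc39a10 fell by 0.96 log2 units (SE 0.12, adjusted p = 7.39e-05) in Ova and by 0.90 (SE 0.11, adjusted p = 9.1e-05) in IC, in 3 of 3 mice each.

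Slc39a1 (chr3:90248172-90253612, plus strand) encodes ZIP1, another importer of the plasma membrane. It stood at 118.6, 111.4 and 107.6 CPM in DMSO Ova and at 86.7, 82.9 and 87.2 CPM in iBET Ova. With IC it stood at 131.3, 146.2 and 137.5 CPM in DMSO and at 96.7, 104.7 and 89.1 CPM in iBET. The order of the 4 groups was DMSO IC, DMSO Ova, iBET IC and iBET Ova, with no overlap between neighbours, although the Ova and IC groups of a drug did not differ past the test. Slc39a1 fell by 0.39 log2 units (SE 0.09, adjusted p = 0.00625) with iBET in Ova and by 0.51 (SE 0.09, adjusted p = 0.000871) in IC. The Ova call ended without mouse B, at -0.37 (adjusted p = 0.112), and without mouse C, at -0.44 (adjusted p = 0.0528), and its adjusted p over all alternatives ran from 0.000402 to 0.112.

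**Figure D4:**
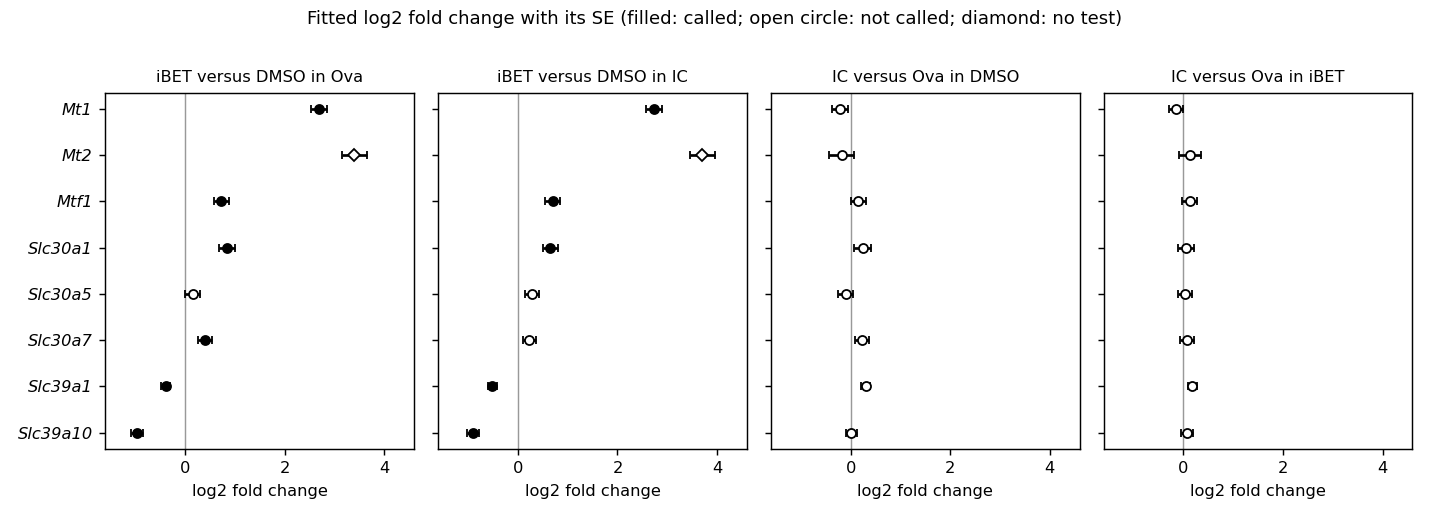
Fitted log2 fold change (x axis, bar: SE) of the 8 genes in the 4 comparisons, with filled circles for genes called, open circles for genes not called and diamonds for Mt2 where it was not tested. With iBET the values run from -0.96 for Slc39a10 to 3.70 for Mt2, whereas the IC comparisons hold all 8 genes between -0.21 and 0.30.

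Levels per length gave another view of the set. On CPM per kilobase of annotated exon, Slc39a1 had the highest mean of the transporters in each group, at 47.6 ± 2.37 in DMSO Ova and 36.2 ± 0.991 in iBET Ova (SD, n = 3). Slc30a5 averaged 9.00 ± 1.60, Slc39a10 7.80 ± 0.428, Slc30a1 6.36 ± 0.812, Mtf1 3.46 ± 0.696 and Slc30a7 2.89 ± 0.205 in DMSO Ova. Mtf1 and Slc30a7 differed by less than the SD of Mtf1, and Slc30a5 and Slc39a10 by less than the SD of Slc30a5. In iBET Ova the order was Slc30a1 at 11.5 ± 1.88, Slc30a5 at 10.1 ± 1.07, Mtf1 at 5.87 ± 0.371, Slc39a10 at 3.98 ± 0.458 and Slc30a7 at 3.81 ± 0.493. There Slc30a1 and Slc30a5 differed by less than the SD of Slc30a1, and Slc39a10 and Slc30a7 by less than the SD of either. The level per length of Mt2 moved from the 82.3 to the 98.4 percentile of 11013 genes with a length between DMSO Ova and iBET Ova.

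IC changed none of the 8 genes past the threshold. In DMSO, 0 of 8 were called, where 1.22% of all genes were, and the fitted differences between IC and Ova ran from -0.21 (Mt1, SE 0.16) to 0.30 (Slc39a1, SE 0.09). Slc39a1 alone had an unadjusted p under 0.05 in edgeR, with an adjusted p of 0.16. It was higher with IC in 3 of 3 mice, and its 2 DMSO groups did not overlap. In iBET, 0 of 8 were called, where 0.349% of all genes were, and the differences ran from -0.15 (Mt1, SE 0.15) to 0.18 (Slc39a1, SE 0.09, adjusted p = 0.71). None of the 8 had an unadjusted p under 0.05 in iBET. DESeq2 called 0 of 8 in both. The differences of Mt2 were -0.18 (SE 0.25) in DMSO and 0.13 (SE 0.22) in iBET, with 95% intervals of -0.68 to 0.32 and -0.30 to 0.55.

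The interaction asked whether IC acted differently under iBET. It called 0 of the 8 genes and 0% of all genes, where 292 genes had an unadjusted p under 0.05 and the smallest adjusted p was 0.388. DESeq2 called 0 of the 8 and 4 of all genes. The fitted interactions of the 8 genes ran from -0.19 (Slc30a1, SE 0.23) to 0.31 (Mt2, SE 0.33), none with an unadjusted p under 0.05. By mouse, the Mt2 interaction was -0.15 and -0.07 in mice A and B and 1.06 in mouse C.

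Both transporter families hold further members, read beside the share of all genes called with iBET, 31.3% in Ova and 34.8% in IC. Of the 10 SLC30 genes listed, 6 passed the filter. Of the 3 not described above, 1 rose and 0 fell with iBET in Ova and in IC, and their median log2 fold change was 0.22 and 0.30, against 0.0193 and -0.00366 over all genes. This was Slc30a9, which encodes a mitochondrial zinc exporter and rose by 0.67 (SE 0.10, adjusted p = 0.00037) in Ova and by 0.75 (SE 0.10, adjusted p = 0.000125) in IC, whereas Slc30a4 and Slc30a6 were not called. Slc30a2, Slc30a8 and Slc30a10 had 0 counts in all 12 libraries and Slc30a3 had 1. Of the 14 SLC39 genes listed, 10 passed the filter, 8 of them not described above, and Slc39a2, Slc39a4, Slc39a5 and Slc39a12 had at most 21 counts in any library. In Ova, Slc39a7, which encodes an endoplasmic reticulum zinc channel, rose by 0.46 (SE 0.16, adjusted p = 0.0448) and 0 of the 8 fell. In IC, Slc39a11 rose by 0.45 (SE 0.16, adjusted p = 0.04) and Slc39a13 fell by 0.58 (SE 0.19, adjusted p = 0.0327). The medians of these 8 were -0.10 and -0.10. Leaving out mouse A's DMSO Ova library gave, over both whole families, 2 exporters higher (Slc30a1 and Slc30a9) and 0 importers higher with 4 lower in Ova, since Slc39a7 was lost (0.29, adjusted p = 0.21) and Slc39a3 (-0.47, adjusted p = 0.0463) and Slc39a13 (-0.63, adjusted p = 0.00936) were gained.

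**Figure D5:**
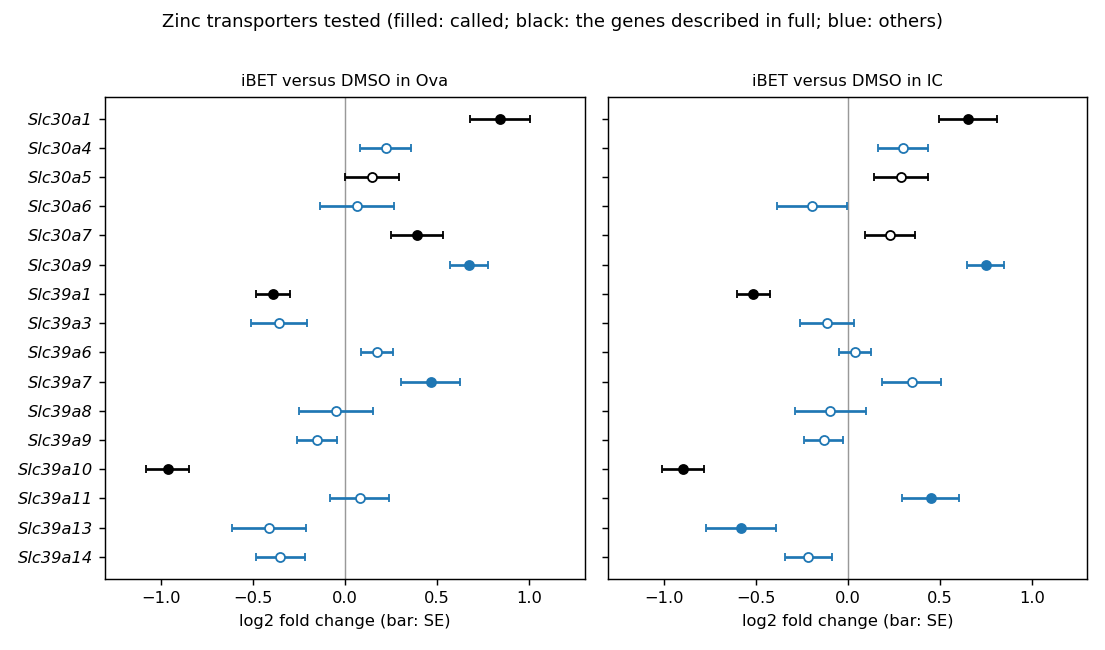
Fitted log2 fold change with iBET (x axis, bar: SE) of the 16 zinc transporter genes that passed the filter, in Ova (left) and IC (right), filled where called, black for the genes described in full and blue for the others. The values run from -0.96 to 0.84 in Ova and from -0.90 to 0.75 in IC, and Slc30a9 is filled on both sides.

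The list of genes linked to the zinc-sensing factor by textbook knowledge held 5 tested genes not described above. Of these, 2 rose, 1 fell and 2 were not called in both Ova and IC, with medians of 0.29 and 0.28. Over all genes, 31.3% were called in Ova and 34.8% in IC. Gclc, which encodes the catalytic subunit of the first enzyme of glutathione synthesis, rose by 1.54 (SE 0.14, adjusted p = 8.3e-06) in Ova and by 1.65 (SE 0.14, adjusted p = 3.67e-06) in IC. Pgf, a growth factor gene, fell by 3.27 (SE 0.79, adjusted p = 0.00748) and by 3.38 (SE 0.53, adjusted p = 0.000378), from means of 0.903 and 3.36 CPM in DMSO. Ndrg1 rose by 0.38 in both (adjusted p = 0.0442 and 0.0335), and its Ova call was lost without mouse A's DMSO Ova library (0.37, adjusted p = 0.074). Selenow and Csrp1 were not called.

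Lists for other metals and for signals known to act on metallothioneins were read beside these. With iBET, 31.3% of all genes tested were called in Ova (17.1% higher and 14.2% lower). In IC the share was 34.8% (19% higher and 15.8% lower). The lists were chosen with earlier results known, so nothing is read from their counts against these shares. For copper, 1 of the 8 tested genes other than Mtf1 rose in Ova and 2 rose and 1 fell in IC, among them the copper exporter gene Atp7a at 1.03 (SE 0.14, adjusted p = 0.000135) and 1.16 (SE 0.14, adjusted p = 4.75e-05). For iron, 3 of 14 rose in Ova and 6 rose and 1 fell in IC, with Hmox1, which encodes heme oxygenase, at 1.43 and 1.55, the ferritin light chain gene Ftl1 at 0.94 and 0.82, and the iron exporter gene Slc40a1 at 0.29 (adjusted p = 0.37) and 0.91 (adjusted p = 0.00834). Without mouse A's DMSO Ova library, Steap3 was also called lower in Ova (-0.60, adjusted p = 0.0115). For glucocorticoid-responsive genes, 4 of 9 rose and 0 fell in each. Ddit4, a stress-responsive inhibitor gene of mTOR signalling, was at 2.16 and 1.31, but on only 2 to 39 counts a library. Its means were 0.655 CPM in DMSO Ova, 2.41 in iBET Ova, 1.03 in DMSO IC and 2.60 in iBET IC. Fkbp5 was at 0.94 and 0.87 and Sgk1 at 0.65 and 0.85. Nr3c1, which encodes the receptor, was at -0.11 (adjusted p = 0.532) and -0.05 (adjusted p = 0.779). The Ova call of Per1 (0.43) was lost without that library (0.38, adjusted p = 0.0995). For genes responsive to the oxidant-responsive factor NRF2, 5 of 10 rose in Ova and 6 rose and 2 fell in IC. Gclc and Hmox1, given above, had the largest rises of this list in both, with Nfe2l2, the factor's own gene, at 0.96 in Ova, Srxn1 at 1.54 in IC and Slc7a11 at -1.37 in IC (adjusted p = 0.00451). Of the 5 genes used as a reference for BET inhibition, Brd2 (2.53 and 2.82) and Hexim1 (2.44 and 2.50) rose and Myc (-1.72 and -2.27) fell in both. Medians in Ova and IC were 0.11 and 0.13 for the 8 copper genes, 0.17 and 0.18 for iron, 0.39 and 0.37 for the glucocorticoid list, 0.33 and 0.71 for the NRF2 list and 0.34 and 0.09 for the BET list. Between IC and Ova in DMSO, these 5 lists held 2 calls, where 1.22% of all genes were called. Slc7a11 was higher at 1.69 (adjusted p = 0.0331) and Zbtb16 lower at -1.33 (adjusted p = 0.0403). Neither call held once mouse A's DMSO Ova library was left out (adjusted p = 0.0552 and 0.0636).

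The genes most like Mt2 over the 12 libraries, by Pearson correlation of log2 CPM among all genes tested, were Mt1 (r = 0.994), Papd5 (r = 0.994), Hspa5 (r = 0.992), H3f3b (r = 0.989) and Taf2 (r = 0.989). For Mt1 they were Papd5 (r = 0.997), Mt2 (r = 0.994), Polr2a (r = 0.992), H3f3b (r = 0.991) and Homer1 (r = 0.989). The libraries formed a DMSO cluster and an iBET cluster for these genes and shared mice, so these values follow the difference between the drug groups. Within the 6 DMSO libraries the correlation of Mt1 with Mt2 was 0.733, and within the 6 iBET libraries it was 0.746. That of Mt2 with Mtf1 was 0.882 over all 12 libraries but -0.01 within DMSO and 0.01 within iBET, and that of Mt2 with Slc39a10 was -0.96 over all and -0.87 and 0.36 within them.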

How the data were processed

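The authors trimmed reads with Trim Galore, aligned them to mm10 with HISAT2 and assigned them to genes with featureCounts; the annotation, the strand setting and how multiply aligned reads were counted are not given in the sources used here. They deposited a table of counts per gene symbol, used here, and a table of normalized signal, which equalled the counts divided by the size factors of DESeq2 (largest relative gap 4.89e-15).

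The counts were modelled with edgeR 4.0.16 in R 4.3.3. After filterByExpr (minimum count 10), a quasi-likelihood model with TMM factors and 1 term per group was fitted to all 12 libraries. P-values were two-sided, adjusted by Benjamini-Hochberg over the 11468 genes tested and called under 0.05. Values by mouse and correlations used log2 CPM with a prior count of 2. Alternatives used DESeq2 1.42.0, limma 3.58.1 (log2 of signal plus 1), other filters and size factors, and 15 fits that left out a library or a mouse. The SE of a log2 fold change is its size divided by the root of its F statistic. The batch removal with sva named by the study was not applied here. The model was tested on simulated data. P-values rest on the spread between libraries within groups, pooled over the 4 groups and moderated across genes. They do not use the pairing by mouse.

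The pairing by mouse rests on the letters A, B and C. The sample titles hold a running number and the group and name no mouse. The study states that the replicates came from independent mice, and does not state which samples shared a mouse. Same-mouse deviations from the group means correlated with a median of 0.263 over 18 pairs (-0.0725 to 0.542). Over 36 pairs of different mice the median was -0.134 (-0.499 to 0.271), so the ranges overlapped. Centring each group on its mean ties the different-mouse values to the same-mouse ones, so the gap between the medians is partly built in. The main model had no term for mouse, and the replicate block was an alternative. The members and the lists were chosen with earlier results of these data known. In each list, at most 4 called genes with the largest absolute change were to be named, and for similarity the 5 genes with the highest correlation. Gene positions and coding sequences came from GENCODE vM21 (GRCm38) and promoters from RefSeq (GRCm38.p6), where all 8 genes matched by symbol.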

Additional observations from a re-analysis of the deposited data

How the results depend on the processing

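Under DESeq2, other size factors, other filters, the groups fitted alone, the normalized signal in limma and the table without Rn45s, the count of the 7 genes called stayed within 1.5 times the main count in Ova and IC, and 0 of 8 were called in the IC comparisons and, except with the groups fitted alone, where it was not fitted, in the interaction. With mouse as a replicate block, the paired fit called 6 of 7 in Ova and 5 of 7 in IC and changed no call of a member. Leaving out a library or a mouse gave 3 to 6 calls in Ova, with 3 without mouse B (Mt1, Slc30a1 and Slc39a10), and 4 to 6 in IC. The log2 fold changes that changed sign in such fits were not called in any of them. They were the iBET difference of Slc30a5 in Ova (-0.046 to 0.28), the IC difference in DMSO of Slc30a5 (-0.24 to 0.0101) and Slc39a10 (-0.0657 to 0.12), the IC difference in iBET of Mt1 (-0.29 to 0.0357), Mt2 (-0.16 to 0.35), Slc30a1 (-0.0738 to 0.22), Slc30a5 (-0.0816 to 0.14) and Slc30a7 (-0.0282 to 0.19), and the interaction of Mt1 (-0.089 to 0.21), Mt2 (-0.0589 to 0.52) and Mtf1 (-0.13 to 0.12). The cause was not tested. The Mt2 rise with iBET ran from 3.12 to 3.71 in Ova and from 3.58 to 3.90 in IC over all alternatives.

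Over all genes, the 3593 and 3987 calls with iBET became 1310 and 1769 without mouse B and 2031 and 2497 without mouse C. The 140 calls of IC against Ova in DMSO became 268 in DESeq2, 315 with the replicate block and 5 with the groups fitted alone, and the 40 in iBET became 113, 85 and 99. Leaving out a library or a mouse gave 0 to 159 and 0 to 305 of these. The interaction had 0 calls in edgeR, 4 in DESeq2 and 1 when mouse B's iBET IC library was left out. Counts of 21 for Mt2 and 49 for Mt1 limit the DMSO Ova library of mouse A, and 3 mice a group limit the precision of each difference.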
